A study of Mus musculus with 4 samples.

Results

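The interferon regulatory factors (IRFs) are transcription factors that switch on interferon genes and the genes that interferon induces. The 8 members described here, Irf1, Irf2, Irf3, Irf4, Irf5, Irf7, Irf8 and Irf9, were taken by symbol from a table of 24346 rows, and all 8 were found in it. The table holds RNA-seq of 4 samples of mBMSCs, bone marrow-derived mesenchymal stem/progenitor cells of wild-type C57BL/6 mice aged 3 months (substrain C57BL/6J in the study's methods). Of these, 2 were transfected with a scramble control siRNA (siScr) and 2 with an siRNA against ZBP1 (siZBP1), by lipid transfection in all 4. Which of the study's siRNAs against ZBP1 was used is not given in the sources used here, and neither is whether more than 1 siRNA was used. The sources do not say that the replicates came from separate mice, so p-values measure only the spread between these samples.

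IRF proteins share an N-terminal DNA-binding domain marked by conserved tryptophans, which reads a repeat of the bases GAAA called the interferon-stimulated response element (ISRE). IRF3 and IRF7 wait in the cytoplasm until kinases downstream of nucleic acid sensors phosphorylate them. IRF9 binds DNA in the complex ISGF3, together with STAT2, and so answers type I interferon. IRF1 activates and IRF2 mostly opposes the same elements, IRF5 acts downstream of MyD88 in myeloid cells, and IRF4 and IRF8 work in blood cells together with partners such as PU.1. IRF8 is also known in bone as a brake on osteoclast formation. ZBP1, the targeted protein, is a sensor of left-handed nucleic acids whose own gene is induced by interferon.

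All 8 members had an entry among RefSeq promoters of the GRCm38.p6 build, with 11 windows that run from 250 bases before to 50 bases after a transcription start. These were searched on both strands for the ISRE core (GAAA, any 2 bases, GAAA), for the STAT element GAS (TTCNNNGAA) and for the NF-kappaB motif. The ISRE core was found in 1 member (Irf2), the GAS in 3 (Irf1, Irf2 and Irf8) and the NF-kappaB motif in 2 (Irf1 and Irf2). Of all 27025 genes in the promoter table, 3.99% held the ISRE core, 9.55% the GAS and 9.55% the NF-kappaB motif, and of all 32851 windows 3.44%, 8.3% and 8.46%. Irf1 and Irf8 each had 2 windows, of which 1 held no match. No match was found in the windows of Irf3, Irf4, Irf5, Irf7 and Irf9, which says only that these letters are not in these windows. The elements of Irf1, Irf2 and Irf8 are shown because they are the only matches among the members, each with 6 bases on either side, read along the gene's strand, with the motif in capitals.
Irf1 GAS, 90 bases before the start, chr11:53769918-53769938, plus strand: cctgatTTCCCCGAAatgatg
Irf1 NF-kappaB, 13 bases before the start, chr11:53769995-53770016, plus strand: cgggccGGGGAATCCCgctaag
Irf2 ISRE, 241 bases before the start, chr8:46739498-46739519, plus strand: ggaagtGAAAATGAAAttgact
Irf2 GAS, 224 bases before the start, chr8:46739515-46739535, plus strand: tgacttTTCCGAGAAatgatg
Irf2 NF-kappaB, 17 bases before the start, chr8:46739722-46739743, plus strand: ggtgggGGGGATTTCCagcctc
Irf8 GAS, 171 bases before the start, chr8:120736181-120736201, plus strand: agtgatTTCTCGGAAagagag
Irf8 GAS, 153 bases before the start, chr8:120736199-120736219, plus strand: gagcgcTTCAGAGAAggcgga

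Values are FPKM, in which fragments are divided by transcript length and by the library's mapped total, so that levels can be set side by side between genes. They sum to between 477974 and 492166 per sample, and absolute depth is unknown. Relative depth was estimated from the most frequent ratio between samples of the values of 986 low genes detected in every sample. With siZBP1 replicate 1 set to 1.00, it was about 1.40 and 1.86 in the siScr samples and 1.61 in siZBP1 replicate 2. This gives no counting interval. Zbp1, the targeted gene, was at 86.0 and 62.0 FPKM in siScr cells and at 11.5 and 11.6 FPKM in siZBP1 cells. The difference in Zbp1 was a log2 fold change of -2.56 (standard error 0.16, limma adjusted p = 0.00322), with limma adjusted p = 0.0748 and 0.0654 when siZBP1 replicate 1 or 2 was left out. Markers of both stromal cells and macrophages were present in every sample. The summed level of 13 mesenchymal markers was 7454 and 6501 FPKM in siScr cells and 5039 and 5098 FPKM in siZBP1 cells, and that of 18 macrophage markers was 12462 and 13564 against 18227 and 17417 FPKM. Abundant genes weigh most in these sums, such as Col1a1 (means of 2793 in siScr and 1160 FPKM in siZBP1 cells) and Lyz2 (3230 and 5636 FPKM). The abundant mesenchymal markers Col1a2, Vim and Itgb1 and the macrophage markers Ctss and Mpeg1 were not called. Of the macrophage markers, 11 of 18 tested rose and 0 fell, and of the mesenchymal markers 0 of 12 tested rose and 5 fell, where 13.5% of all tested genes were called higher and 14.8% lower. Without siZBP1 replicate 1 or 2, the median log2 fold change was 0.27 and 0.31 for the macrophage markers (0.29 with all samples). For the mesenchymal markers it was -0.35 and -0.39 (-0.39 with all samples). Such fits called few genes over the whole table, so calls of these markers are not given for them. In bulk RNA, a change in the number of cells of a type and a change in the RNA of single genes per cell cannot be told apart.

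Differences were tested with limma on log2(FPKM + 1) over all 11959 genes with a mean of at least 1 FPKM, and a gene was called at an adjusted p under 0.05. Irf7, the main amplifier of the type I interferon response, had the largest difference among the members and fell in ZBP1-depleted mBMSCs. Irf5 also fell and Irf1 rose, both by less than the 1.5-fold limit of the study. Of the 7 members tested, 2 were called lower, against 14.8% of all tested genes, and 1 higher, against 13.5%. Both directions together gave 3 of 7 members against 28.3% of all tested genes. The median log2 fold change was 0.03 for the members and 0.00446 for all tested genes. By the ratio of the group means, 1 member (Irf7) was over 1.5-fold lower, against 13.8% of genes with a mean above 0 in both groups, and 0 were over 1.5-fold higher, against 10.7%. For 2 samples against 2, the smallest two-sided p of an exact permutation test is 0.333, so the calls rest on the variance that limma shares between genes.

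**Figure D1:**
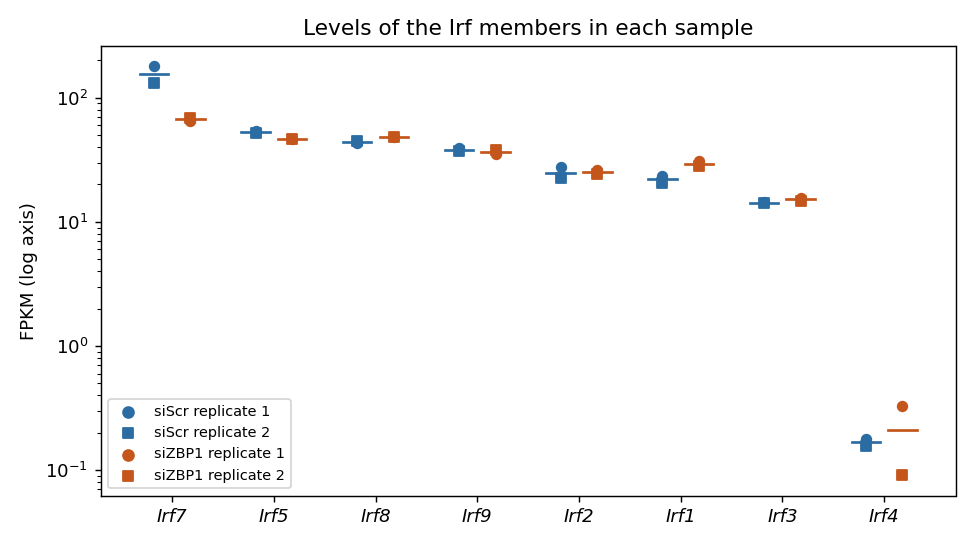
FPKM of the 8 Irf members in each of the 4 samples on a log axis, ordered by their mean in siScr cells (points are samples, short bars are group means). Irf7 drops from 178.5 and 130.1 to 65.1 and 69.1 FPKM, while Irf4 lies below 1 FPKM in every sample.

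Irf7 is read from the minus strand of chromosome 7, between 141262706 and 141266481 in GRCm38. Its level was 178.5 and 130.1 FPKM in siScr cells and 65.1 and 69.1 FPKM in siZBP1 cells. Both siZBP1 samples were below both siScr samples, and the siScr replicates stood further apart from each other (1.37-fold) than the siZBP1 replicates (1.06-fold). The group means were 154.3 ± 34.2 and 67.1 ± 2.85 FPKM (SD, n = 2 each), which is 2.30-fold lower, and between single samples the fall was 1.88-fold at the least and 2.74-fold at the most. The log2 fold change was -1.17 (standard error 0.16, 95% interval -1.59 to -0.76, limma adjusted p = 0.0107). This difference ranked 292 among 11959 tested genes ordered from the largest fall, and Zbp1 itself ranked 67. Without siScr replicate 1, the sample with the higher Irf7, the log2 fold change was -0.95 (limma adjusted p = 0.0260), and without a siZBP1 replicate it was -1.13 and -1.22 with limma adjusted p = 0.117 and 0.0971, past the threshold in neither. Of the genes that overlap it in the GENCODE M21 annotation, Phrf1 shares 45 bases on the opposite strand and was at 12.4 and 11.95 FPKM in siScr cells and 13.0 and 13.2 FPKM in siZBP1 cells.

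Irf3, which sits beside IRF7 downstream of the nucleic acid sensors and is made without induction in most cells, was at 14.3 and 14.1 FPKM in siScr cells and at 15.6 and 14.8 FPKM in siZBP1 cells. The groups lay apart by a narrow margin, and the log2 fold change was 0.09 (95% interval -0.06 to 0.24, limma adjusted p = 0.301). Its start overlaps Bcl2l12 on the opposite strand over 1065 bases, and Bcl2l12 fell, from 7.22 and 6.14 to 5.00 and 4.67 FPKM (limma adjusted p = 0.0493). Strand-specific counting is not stated, so reads of these overlapping stretches cannot be told apart. Within each sample, Irf7 was 12.5 and 9.26 times as high as Irf3 in siScr cells and 4.17 and 4.68 times as high in siZBP1 cells. This ratio does not depend on how the libraries are scaled to each other, and its groups did not overlap.

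Irf9, the DNA-binding part of ISGF3, was at 39.3 and 37.1 FPKM in siScr cells and at 35.3 and 38.0 FPKM in siZBP1 cells. The groups overlapped, and the log2 fold change of -0.06 was not called (95% interval -0.21 to 0.10, limma adjusted p = 0.521). Stat2, which encodes a partner in that complex, was at 59.0 and 55.1 against 51.1 and 50.6 FPKM, with a log2 fold change of -0.16 that was not called (limma adjusted p = 0.0745). The level of Irf7 within a sample was 4.55 and 3.51 times that of Irf9 in siScr cells and 1.84 and 1.82 times in siZBP1 cells, a ratio chosen after values had been seen.

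Irf1, an activator induced by interferon-gamma and inflammatory signals, was at 23.6 and 20.5 FPKM in siScr cells and at 30.8 and 28.1 FPKM in siZBP1 cells. Both siZBP1 samples were above both siScr samples. The group means of 22.1 ± 2.16 and 29.5 ± 1.89 FPKM (SD, n = 2 each) differed 1.34-fold, with a log2 fold change of 0.40 (standard error 0.09, 95% interval 0.17 to 0.63, limma adjusted p = 0.0327). The rise did not pass the threshold in fits that left out 1 sample, where limma adjusted p ranged from 0.0572 to 0.195, nor without a variance trend (limma adjusted p = 0.0550). Irf2, its antagonist, was at 27.4 and 22.4 FPKM in siScr cells and at 26.2 and 24.4 FPKM in siZBP1 cells. Its siZBP1 values lay within the range of the siScr values, and its log2 fold change was 0.03 (95% interval -0.25 to 0.31, limma adjusted p = 0.864). The level of Irf1 was 0.861 and 0.918 times that of Irf2 in siScr cells and 1.18 and 1.15 times in siZBP1 cells, so Irf2 was the higher of the pair in both siScr samples and Irf1 in both siZBP1 samples. Irf1 lies on chromosome 11 from 53770014 to 53778374 and Irf2 on chromosome 8 from 46739732 to 46847458, both on the plus strand. The window of Irf2 and 1 of the 2 windows of Irf1 hold a GAS and an NF-kappaB motif, as shown above. The other window of Irf1 holds neither.

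**Figure D2:**
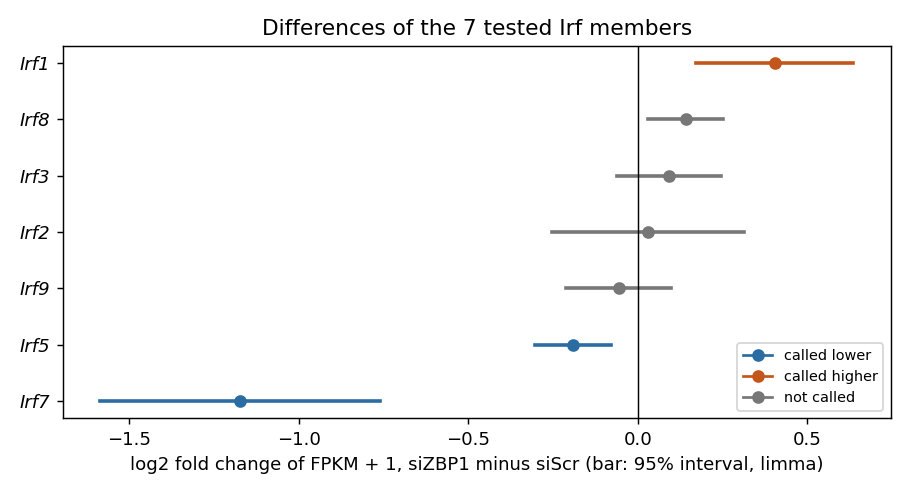
The log2 fold change of FPKM + 1 (siZBP1 minus siScr) of the 7 tested Irf members with 95% intervals from limma, coloured by call. Irf7 lies at -1.17, Irf5 at -0.19 and Irf1 at 0.40, and the intervals of Irf2, Irf3 and Irf9 cross 0, while that of Irf8 does not although its adjusted p is over the threshold.

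Irf5, a mediator of Toll-like receptor signals in macrophages, was at 53.9 and 52.0 FPKM in siScr cells and at 46.1 and 46.3 FPKM in siZBP1 cells. Its replicates differed from each other by little, 1.04-fold and 1.00-fold, and the groups did not overlap. The group means of 52.9 ± 1.39 and 46.2 ± 0.134 FPKM (SD, n = 2 each) gave a log2 fold change of -0.19 (standard error 0.04, 95% interval -0.30 to -0.08, limma adjusted p = 0.0339). The call was lost with libraries scaled to the same median (limma adjusted p = 0.0537), without a variance trend (0.0769), with a replicate block, the replicate number as a term of the fit (0.0546), and in fits without 1 sample, where limma adjusted p ranged from 0.0512 to 0.187. The 3' end of Irf5, on chromosome 6 from 29526625 to 29541871, overlaps Tnpo3 on the opposite strand over 1045 bases. Tnpo3 was at 25.5 and 26.3 FPKM in siScr cells and at 21.3 and 23.0 FPKM in siZBP1 cells (limma adjusted p = 0.0532), and the part of its reads in the value of Irf5 was not tested.

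Irf8, which macrophages and their precursors need, was at 43.0 and 44.4 FPKM in siScr cells and at 48.4 and 48.2 FPKM in siZBP1 cells. The groups did not overlap, but the log2 fold change of 0.14 (standard error 0.04, 95% interval 0.03 to 0.25) was not called (limma adjusted p = 0.0679), except with libraries scaled to the same median (limma adjusted p = 0.0401). Relative to Irf5 in the same sample, Irf8 was at 0.797 and 0.855 in siScr cells and at 1.05 and 1.04 in siZBP1 cells, a ratio also chosen after values had been seen. Irf5 and Irf8 are both known from macrophages, and the macrophage markers whose sums are given above include Csf1r, at 467 and 470.0 against 584 and 558 FPKM, and Mpeg1, at 844 and 857 against 841 and 844 FPKM. The part of the macrophage markers in the values of Irf5, Irf8 and Irf7 was not tested.

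Irf4, a factor of lymphocytes and of some macrophages, was near the limit of detection, at 0.179 and 0.157 FPKM in siScr cells and at 0.332 and 0.0912 FPKM in siZBP1 cells. It is the 1 member that did not pass the filter of 1 FPKM. The siZBP1 replicates differed 3.64-fold from each other and enclosed both siScr values, and with the filter lowered to 0.1 FPKM the log2 fold change was 0.05 (limma adjusted p = 0.830). Irf8 was between 145.8 and 528.5 times as high as Irf4 over the 4 samples. Markers of T cells, which are known for Irf4, lay at similar low levels, with Cd3g listed at 0 in every sample, Cd3d between 0.0729 and 0.230 FPKM and Lck between 0.145 and 0.318 FPKM. In the list of 8 B and plasma cell markers, 2 of 2 tested fell, Sdc1 from 61.4 and 56.6 to 32.6 and 31.5 FPKM and Ebf1, both of which stromal cells also express. Of the 6 T cell markers, 1 of 1 tested rose, Cd4, which macrophages can also express. Of the 9 dendritic cell markers, 1 of 1 tested rose (Itgax), with Flt3 at 0. Of the endothelial markers 0 of 1 tested was called, and of the osteoclast markers Ctsk fell and Atp6v0d2 rose among 3 tested. Of the neutrophil markers 0 of 2 tested were called, with Elane, Mpo and S100a9 at 0. The tested ones were Csf3r, at 8.04 and 6.93 against 5.92 and 6.17 FPKM, and S100a8, at 0.434 and 0.322 against 0.597 and 4.52 FPKM, high in siZBP1 replicate 2 alone.

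**Figure D3:**
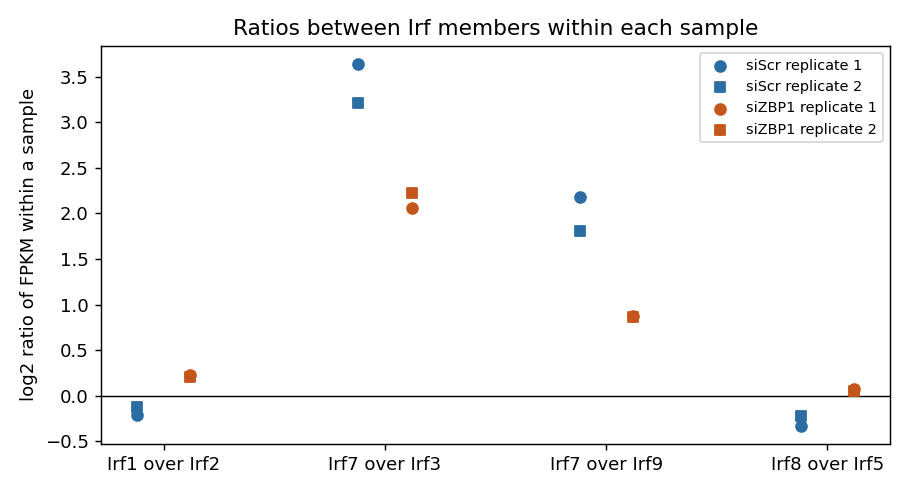
The log2 ratio of the FPKM of one Irf member to another within each sample, for 4 pairs. Irf7 over Irf3 falls from 3.64 and 3.21 in siScr samples to 2.06 and 2.23 in siZBP1 samples, and Irf1 over Irf2 goes from below 0 to above 0.

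In siScr cells, the order of the levels was Irf7, Irf5, Irf8, Irf9, Irf2, Irf1, Irf3 and Irf4, the same in both samples. In siZBP1 cells it was Irf7, Irf8, Irf5, Irf9, Irf1, Irf2, Irf3 and Irf4, again the same in both, so that Irf5 and Irf8 as well as Irf1 and Irf2 had changed places. Among neighbours in these orders, the ranges over replicates overlapped only for Irf2 and Irf1 in siScr cells. The 8 members together reached 380.2 and 320.7 FPKM in siScr cells and 267.9 and 269.0 FPKM in siZBP1 cells. Without Irf7 the sum was 201.7 and 190.6 against 202.8 and 199.9 FPKM. Irf7 made up 47.0% and 40.6% of the summed level in siScr cells and 24.3% and 25.7% in siZBP1 cells. For 5 of the 7 tested members the groups did not overlap, against 68.4% of all tested genes.

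The genes whose values over the 4 samples were most like those of a called member were found by the root mean square distance of log2(FPKM + 1) after each gene's own mean had been taken off, among 11959 genes. For Irf7 they included Aldh1a2 (distance 0.042) and Irx3 (0.046). Irx3, for example, was at 23.9 and 16.5 FPKM in siScr cells and at 8.67 and 8.78 FPKM in siZBP1 cells. For Irf1 they were Stx11 (distance 0.0095), Dis3l2 (0.019) and Nfs1 (0.021), and for Irf5 Gmeb2 (0.0035), Atp5b (0.0035) and Wls (0.0051). With 4 samples such likeness is a description of these libraries only.

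Genes around the IRFs were read from the same fit in 7 lists, with 111 genes in the table and 93 tested. Of these, 8 were lower (against 14.8% of all tested genes) and 22 higher (against 13.5%), and the median log2 fold change was 0.02. Fits with 1 sample left out called fewer genes over the whole table, so only medians of the lists are given from them. Of the upstream sensors, adaptors and kinases, 8 of 22 were higher and 1 lower, with a median of 0.11, where 13.5% of all tested genes were higher. With siScr replicate 1 left out, the median of this list was 0.17. Leaving out siScr replicate 2 instead gave a median of 0.10. The macrophage markers moved with this list (11 of 18 higher, median 0.29), and their part in it was not tested. Ikbke, which encodes the kinase IKK-epsilon that phosphorylates IRF3 and IRF7, rose from 8.64 and 7.72 to 13.9 and 12.5 FPKM (1.61-fold, limma adjusted p = 0.0123). Tlr7, an endosomal sensor of single-stranded RNA, rose from 89.1 and 95.8 to 134.0 and 130.8 FPKM (limma adjusted p = 0.00610), and Traf3, an adaptor on the way to these kinases, from 7.70 and 8.73 to 11.1 and 11.5 FPKM (limma adjusted p = 0.0254). For each of the 3 genes the groups did not overlap, which also held for 68.4% of all tested genes. Tbk1, the sister kinase of IKK-epsilon, was at 24.5 and 25.8 against 29.2 and 28.4 FPKM and was not called (limma adjusted p = 0.0557).

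Interferon genes themselves were barely detected. Of 11 ligands, 9 were listed at 0 in every sample, and none reached the filter. Ifnb1, which encodes interferon-beta, was at 0.334 and 0 FPKM in siScr cells and at 0.152 and 0.0948 FPKM in siZBP1 cells. Of the receptors and JAK-STAT genes, 3 of 15 tested were higher (against 13.5% of all tested genes) and 0 lower (against 14.8%), with a median of 0.02. The 3 were Ifngr1, Stat3 and Ifnar1, with log2 fold changes of 0.25, 0.24 and 0.20 and limma adjusted p of 0.0339, 0.0310 and 0.0453.

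Of 23 genes driven through ISREs by ISGF3, IRF3 or IRF7, 4 were lower, 2 were higher and 17 were not called, with a median of -0.11, against 14.8% lower and 13.5% higher among all tested genes. Under the alternatives with all samples, those lower ranged from 2 without a variance trend to 10 without small RNA genes, with 8 under a replicate block. Over all tested genes, 1520, 2065 and 1654 were lower in these 3 fits, where the main fit gave 1766. Oasl1, which encodes an OAS-like protein known to restrain the translation of Irf7 mRNA, fell from 9.93 and 7.07 to 4.15 and 4.24 FPKM (2.03-fold, log2 fold change -0.85, limma adjusted p = 0.0234). Xaf1, a pro-apoptotic interferon-induced gene, fell from 31.8 and 26.5 to 18.5 and 18.2 FPKM (limma adjusted p = 0.0144), and Ifit1, an antiviral RNA-binding protein, from 87.8 and 72.4 to 58.5 and 58.8 FPKM (limma adjusted p = 0.0356). Oas3 was the fourth, and Cxcl10 and Oas2 were higher. For the chemokine Cxcl10 the values were 19.6 and 17.7 against 24.2 and 23.8 FPKM (limma adjusted p = 0.0230). Ubiquitin-like Isg15, at 280.7 and 222 against 186.5 and 196.7 FPKM, was not called (limma adjusted p = 0.0779).

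One library moved with this list and with others. In siScr replicate 1, 22 of the 23 genes were higher than in siScr replicate 2 (95.7%, against 55% of all tested genes), with a median ratio of 1.17. Of the 7 tested Irf members, 6 were higher there too (median ratio 1.06 over the 7), among them Irf7 (1.37-fold). Zbp1 was also higher there, 1.39-fold. So were 14 of 16 IRF1 targets, 12 of 15 receptor and JAK-STAT genes and 10 of 12 mesenchymal markers (median ratio 1.16). Of the sensors, adaptors and kinases 10 of 22 were higher there, and of the macrophage markers 4 of 18. For the 23 genes, log2 fold changes had a median of -0.00497 without siScr replicate 1, where all samples gave -0.11. Without siScr replicate 2 it was -0.22. Without siZBP1 replicate 1 or 2 the median was -0.19 and -0.07. The median of all tested genes lay between 0.00143 and 0.00524 in these fits. The part of siScr replicate 1 in the difference of the list was given by these fits only, and what sets the sample apart was not tested.

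Of the genes in this list with a promoter entry, 9 of 17 (52.9%) held the ISRE core, against 3.99% of all genes in the promoter table. Among these 9, 2 were lower and 1 higher, where 14.8% of all tested genes were lower and 13.5% higher. Among the list's genes with a promoter entry but no core, 2 were lower (Oasl1 and Xaf1) and 0 higher. The elements of the called genes that hold the core are shown as examples of the sequence IRFs read. The core is in capitals, on the gene's strand. Where the core lies on the other strand, it appears as its reverse complement.
Oas3 (lower), 75 bases before the start, chr5:120777719-120777740, minus strand: ggaggaGAAAACGAAAgtgaag
Ifit1 (lower), 104 bases before the start, chr19:34640779-34640800, plus strand: cttcagTTTCACTTTCcagtct
Ifit1 (lower), 85 bases before the start, chr19:34640798-34640819, plus strand: tctcagTTTCAGTTTCtcactg
Cxcl10 (higher), 213 bases before the start, chr5:92349087-92349108, minus strand: gctttgGAAAGTGAAActtacc
Genes with the element were thus called in both directions, as were the genes of the list at large.

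**Figure D4:**
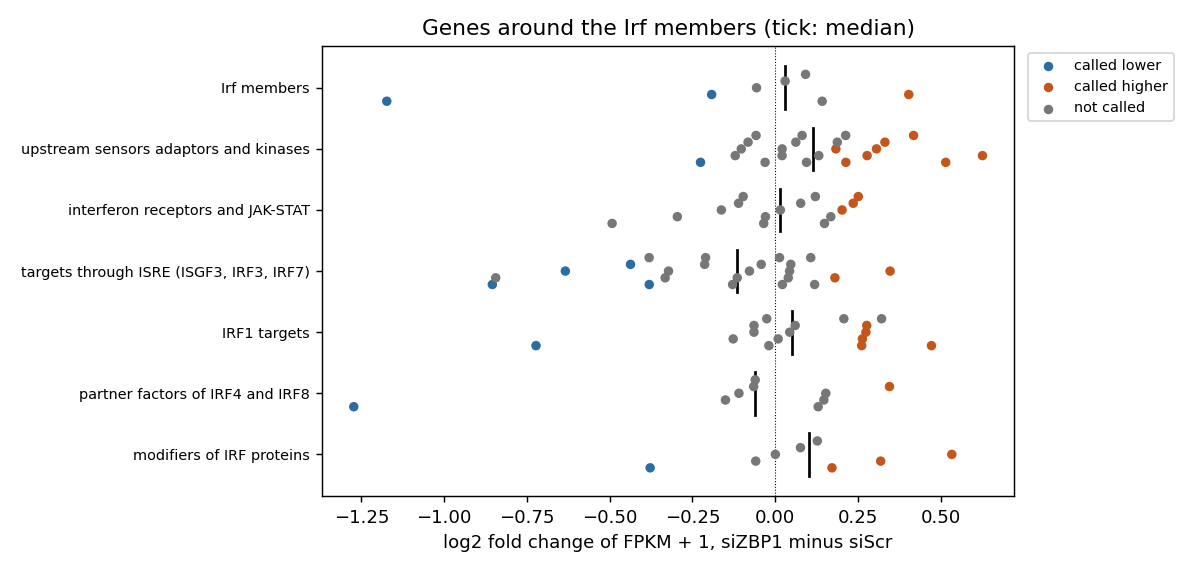
Log2 fold changes of FPKM + 1 (siZBP1 minus siScr) of the tested Irf members and of the genes in 6 lists around them, 1 point per gene, coloured by call, with a black tick at the median. The targets through ISREs have a median of -0.11 and the upstream sensors, adaptors and kinases one of 0.11.

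Of the known targets of IRF1, 5 of 16 tested were higher and 1 was lower, with a median of 0.05. Among all tested genes 13.5% were higher and 14.8% lower. Gbp5, an interferon-gamma-induced GTPase, rose from 2.65 and 2.59 to 4.21 and 3.84 FPKM (limma adjusted p = 0.0272). The ISRE core was found in 4 of the 13 genes of this list with a promoter entry. They were Gbp5 and the genes Gbp2, Gbp3 and B2m, which were not called. The other called genes, 4 higher and 1 lower, did not hold it in the windows searched. Cd274, which encodes the checkpoint ligand PD-L1, rose from 7.73 and 7.30 to 9.48 and 9.14 FPKM (limma adjusted p = 0.0450). The other genes that rose, Psmb9, Psmb10 and Tapbp, had log2 fold changes between 0.26 and 0.27. They act in antigen processing for MHC class I. Tap1, Tap2, B2m and Nlrc5, class I genes of the same list, were not called, with log2 fold changes of -0.03, 0.04, -0.06 and -0.02. Il18bp, a secreted decoy of the cytokine IL-18, fell from 14.4 and 12.1 to 7.42 and 7.84 FPKM (1.74-fold, limma adjusted p = 0.0114).

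Among genes listed here as partner factors of IRF4 and IRF8, 1 of 9 tested was lower (against 14.8% of all tested genes) and 1 higher (against 13.5%). Their median log2 fold change was -0.06. Membership of this list does not mean that the product binds these IRFs. Klf4, a zinc-finger factor of monocytes and of many stromal cells, fell from 15.5 and 12.5 to 5.64 and 4.75 FPKM (2.70-fold, log2 fold change -1.27, limma adjusted p = 0.00679). Ikzf1, which encodes the blood cell factor Ikaros, rose from 14.5 and 15.4 to 18.9 and 19.5 FPKM (limma adjusted p = 0.0173). Spi1, which encodes PU.1, was at 148.4 and 138.4 against 155.0 and 158.8 FPKM and was not called (limma adjusted p = 0.121). Of 8 genes whose products bind or modify IRF proteins, 3 were higher (against 13.5%) and 1 lower (against 14.8%), with a median of 0.10. Irf2bpl, a relative of the IRF2-binding proteins, rose from 26.0 and 25.1 to 38.4 and 36.5 FPKM (1.46-fold, limma adjusted p = 0.00585), and Lyn, a kinase that restrains IRF5, from 78.0 and 74.8 to 94.4 and 96.6 FPKM (limma adjusted p = 0.0109). Trim21, an E3 ubiquitin ligase that acts on IRF3 and other IRFs, fell from 16.2 and 15.5 to 12.1 and 11.8 FPKM (limma adjusted p = 0.0145). Irf2bp2, which binds IRF2, was at 32.3 and 33.9 against 32.2 and 34.0 FPKM.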

How the data were processed

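RNA was collected from mBMSCs transfected with siScr or siZBP1, 2 samples each. Per the labels and the study's methods, the authors prepared TruSeq libraries, mapped reads to mm10 with TopHat and deposited FPKM per gene. The methods name HTSeq and the submitters' processing notes name Cufflinks for the values. Gene annotation and filters are not given in the sources used here. Of the rows, 27 carry symbols turned into dates, none of them a member.

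A trended-variance fit in limma 3.58.1 under R 4.3.3 was run on log2(FPKM + 1) of genes with a mean of at least 1 FPKM, two-sided, with Benjamini-Hochberg adjustment over all tested genes. The code was also run on simulated data with shifts larger than that of any member, which does not cover small differences such as that of Irf5. Fold changes on this scale understate those of low genes. No set test was run. The members and lists were chosen with earlier results of these data known. Genes are named by rule: all members, Zbp1, the 3 largest called changes of each pathway list, the 3 genes most like each called member, and others where a result turns on them (such as Tbk1, Stat2, Isg15, Cxcl10, Oas3, Spi1, Irf2bp2 and the other called IRF1 targets, chosen after their values were seen). Positions came from GENCODE M21 on GRCm38, and promoters from RefSeq. Tables came from pandas 2.3.3 and numpy 2.4.6 under Python 3.11.15, and figures from matplotlib 3.10.9. Alternatives changed the pseudocount, filter, scaling, variance model, genes tested, pairing and samples. Protein sequences were not used here, and a few genes that the rule names are not reported here.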

Additional observations from a re-analysis of the deposited data

How the results depend on the processing

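With all 4 samples, Irf7 passed the limma threshold under 12 of 12 alternatives, with log2 fold changes from -1.18 to -1.14, Irf1 under 11 of 12 and Irf5 under 9 of 12, and no member changed sign. Members called lower numbered 1 (Irf7) in place of 2 with libraries scaled to the same median, without a variance trend and with a replicate block, where Irf5 had a limma adjusted p of 0.0546. Members called higher numbered 2 (Irf1 and Irf8) with the same median and 0 without a variance trend. With 1 sample left out, which leaves a lone sample assumed to vary like the other group, fewer genes were called over the whole table. The log2 fold change in these fits ran from -1.40 to -0.95 for Irf7, from 0.31 to 0.50 for Irf1 and from -0.22 to -0.17 for Irf5. Irf2, not called in any fit, ranged from -0.11 without siScr replicate 2 to 0.17 without siScr replicate 1, and was at -0.02 without siZBP1 replicate 1. Members over 1.5-fold lower ranged from 1 to 2 and higher from 0 to 1 with a sample left out, through Irf4 alone.

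Pathway genes called lower, 8 in all, numbered 5 without a variance trend, 15 without small RNA genes and 13 with the replicate block. Over all tested genes, 1520, 2065 and 1654 were lower under these settings, where the main fit gave 1766. Those called higher, 22 in all, numbered 14 without a variance trend, where 1231 of all tested genes were higher (1618 in the main fit). The replicates share only a number: the differences between replicates correlated at -0.063 between the groups (r across 11959 genes, which are not independent). The block moved the calls over all genes from 1766 to 1654 lower and from 1618 to 1465 higher, and the call of no member other than Irf5. The number of reads is unknown, so whether values such as those of Irf4 differ was not detectable here.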
